A study of Mus musculus with 3 samples.

Results

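The 8 genes described here are those with which an enterochromaffin cell makes and stores serotonin, together with the peptides and proteins that share its granules. They are Tph1, Ddc and Gch1 of serotonin synthesis, the transporter Slc18a1, the granule proteins Chga and Chgb, and the secreted products Tac1 and Reg4, chosen by symbol, and each of the 8 symbols named 1 gene in the tables. The samples were 3 single-cell RNA-seq libraries, 1 each from the duodenum, jejunum and ileum of wild-type C57BL/6N male mice aged 12 weeks, with the cells of 3 mice pooled in each library and live cells sorted without an epithelial marker. No mouse was treated and none carried an altered allele, so segment was the only labelled difference between the libraries. With 1 library a segment, segment cannot be told apart from the quality of a library, and no difference between segments was tested. Enteroendocrine (EE) barcodes were those with a UMI (a counted RNA molecule) of Neurod1, a transcription factor of the lineage, or of Chga. They numbered 879 of 16686 kept barcodes (duodenum 124, jejunum 199 and ileum 556), and 76 of them (36, 13 and 27) also held a Tph1 UMI.

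Serotonin is made from tryptophan in 2 steps. Tryptophan hydroxylase, encoded outside the nervous system by Tph1, sets the rate and needs the cofactor tetrahydrobiopterin, whose synthesis starts with the enzyme encoded by Gch1. The decarboxylase Ddc then completes serotonin, and the vesicular monoamine transporter VMAT1, encoded by Slc18a1, loads it into granules. Chga and Chgb encode chromogranins, acidic proteins of the granule matrix in endocrine cells generally. Tac1 encodes the precursor of substance P, a peptide that some enterochromaffin cells release with serotonin, and Reg4 encodes a secreted C-type lectin of the regenerating-protein family, also known from deep crypt secretory cells. Most of the body's serotonin comes from enterochromaffin cells of the gut, where it acts on motility, secretion and sensory nerves.

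All 8 are protein-coding genes. In GRCm38 with GENCODE M21, the annotation of the deposited gene identifiers, Tph1 (ENSMUSG00000040046) lies on the minus strand at chr7:46644641-46672537, Ddc (ENSMUSG00000020182) on the minus strand at chr11:11814101-11898144, Gch1 (ENSMUSG00000037580) on the minus strand at chr14:47153895-47189413 and Slc18a1 (ENSMUSG00000036330) on the minus strand at chr8:69037711-69089235. Chga (ENSMUSG00000021194) lies on the plus strand at chr12:102554969-102565028, Chgb (ENSMUSG00000027350) at chr2:132781278-132795079, Tac1 (ENSMUSG00000061762) at chr6:7554879-7565834 and Reg4 (ENSMUSG00000027876) at chr3:98222156-98236748, all on the plus strand. The 8 lie on 8 different chromosomes.

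RefSeq start windows on GRCm38.p6, from 250 bases before a start to 50 after it, were found for 7 of the 8 genes, and Slc18a1 was not matched. The windows of Tph1, Chga, Chgb and Tac1 are shown because these genes were high in the same barcodes below, and because their windows differ in the short sequences that the basic helix-loop-helix factors of the lineage and the cAMP-response factors are known to bind. Capitals mark the E-box CANNTG and the cAMP-response element TGACGTCA, searched on both strands.
Tph1 (chr7:46667328-46667627, minus strand): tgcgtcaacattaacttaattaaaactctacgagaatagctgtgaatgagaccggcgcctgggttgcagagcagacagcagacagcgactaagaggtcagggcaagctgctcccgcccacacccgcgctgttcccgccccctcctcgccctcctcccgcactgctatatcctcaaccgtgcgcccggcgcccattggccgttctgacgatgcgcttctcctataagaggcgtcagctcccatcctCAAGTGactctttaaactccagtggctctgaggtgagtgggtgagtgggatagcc
Chga (chr12:102554691-102554990, plus strand): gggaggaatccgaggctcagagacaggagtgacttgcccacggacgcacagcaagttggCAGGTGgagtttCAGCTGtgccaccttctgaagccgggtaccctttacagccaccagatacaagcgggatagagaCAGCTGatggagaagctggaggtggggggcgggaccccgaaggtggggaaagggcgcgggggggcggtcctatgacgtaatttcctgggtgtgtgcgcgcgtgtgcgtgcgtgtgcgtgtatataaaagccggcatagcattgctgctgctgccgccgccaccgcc
Chgb (chr2:132781392-132781691, plus strand): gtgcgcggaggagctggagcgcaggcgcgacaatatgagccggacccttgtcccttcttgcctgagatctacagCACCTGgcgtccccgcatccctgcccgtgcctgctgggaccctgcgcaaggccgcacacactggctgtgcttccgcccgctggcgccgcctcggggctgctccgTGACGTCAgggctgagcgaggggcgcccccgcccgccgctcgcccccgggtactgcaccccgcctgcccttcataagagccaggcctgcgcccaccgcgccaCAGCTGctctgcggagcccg
Tac1 (chr6:7554811-7555110, plus strand): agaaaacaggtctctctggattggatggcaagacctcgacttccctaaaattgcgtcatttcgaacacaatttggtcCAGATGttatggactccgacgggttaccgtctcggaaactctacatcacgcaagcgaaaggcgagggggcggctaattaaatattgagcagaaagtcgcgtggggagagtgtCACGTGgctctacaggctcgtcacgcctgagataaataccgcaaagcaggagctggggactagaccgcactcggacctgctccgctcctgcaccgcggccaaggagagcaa

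The Tph1 window held 1 E-box, CAAGTG, at position -5 from the start, and a second Tph1 window from another start held none. Chga held 3 E-boxes, at positions -191, -179 and -116. Chgb held 2 E-boxes, at positions -176 and 30, and the only TGACGTCA among the windows of the 7 genes, at position -72. Other forms of the cAMP-response element were not searched, so the other windows are not shown to lack one. Tac1 held CAGATG, the E-box form that NEUROD1 is known for, at position -173, and CACGTG at position -61. The Reg4 window held 1 E-box, and those of Ddc and Gch1 held none. Over all 32851 windows, 72.3% held CANNTG, 17.2% held CAGATG, which is one form of CANNTG, and 1.79% held TGACGTCA, so an E-box by itself was common.

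Median depth was 12424 UMIs for the kept duodenal barcodes, 11737 for those of the jejunum and 5536 for the ileal ones, and the cut on mitochondrial reads removed most barcodes that were dropped. The share of barcodes kept was 44.8%, 53.6% and 84.1%, and the median mitochondrial share of the kept ones was 27.1%, 27.2% and 11.1%. The libraries shared 4 to 12 barcode sequences a pair, and none of the 76 EE barcodes with a Tph1 UMI was shared. The EE rule is wide. Of the 879 EE barcodes, 502 (57.1%) had exactly 1 Chga UMI and no Neurod1, and 3 of these 502 fell in the cluster of 170 cells that held the markers of enteroendocrine cells (EECs). The cluster took 63 of the 76 with a Tph1 UMI (82.9%) but 105 of the 803 without (13.1%), and 413 of those 803 fell among the enterocytes. The summed level of 14 enteroendocrine markers was 36.7, 9.39 and 13.5 UMIs per 10000 in the duodenum, jejunum and ileum with a Tph1 UMI, 17.8, 5.96 and 7.05 without one, and 0.455 to 1.00 in the barcodes without Tph1 outside the cluster. The label of enteroendocrine therefore did not hold for most barcodes without a Tph1 UMI. The members' comparisons are given beside those in the 157 barcodes with UMIs of both Neurod1 and Chga, of which 147 (93.6%) were in the cluster, 64 (30, 10 and 24) with Tph1 and 93 (17, 12 and 64) without.

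Levels are sums over the barcodes of a group, in UMIs of the gene per 10000 UMIs of all genes, with exact Poisson 95% intervals. Shares of barcodes have exact binomial 95% intervals, and both cover counting error only. Thinned shares were taken after each barcode was drawn down to 800 UMIs, which every kept barcode had. Values are in the order duodenum, jejunum and ileum.

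Tph1 was close to confined to EE barcodes. They held 1719 of the 1784 Tph1 UMIs (96.4%), and 98.0%, 94.5% and 92.6% within the 3 libraries. The other 15807 kept barcodes had 0.00435, 0.00128 and 0.0057 Tph1 UMIs per 10000, and 53 of them (0.335%) had a Tph1 UMI, of which 48 had only 1 and 37 were enterocytes. In T cells, a class outside the epithelium, 0.167% of 1200 barcodes without a Neurod1 or Chga UMI had a Tph1 UMI at a median depth of 4259 UMIs, against 0.374% of 9900 enterocytes at 10059 UMIs. At 800 UMIs the shares were 0% (0 to 0.307) and 0.0404% (0.011 to 0.103), whose intervals overlapped. At the edge of the rule, 13 of the 76 EE barcodes had exactly 1 Tph1 UMI, and 6 of these 13 were in the EEC cluster. Among the 76 the summed Tph1 level was 23.8 (22.4 to 25.2), 7.67 (6.37 to 9.17) and 21.6 (19.6 to 23.7), and single barcodes had medians of 24.2, 16.9 and 21.8 with a highest value of 125. A single jejunal barcode held 69 of the 121 Tph1 UMIs of its group. The 4 jejunal barcodes outside the EEC cluster held 101131 of the group's 157666 UMIs of all genes. Among barcodes with Tph1 in the cluster the level was 26.6, 20.7 and 33.5.

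Ddc, Gch1 and Slc18a1 were found well beyond EE barcodes, each in a different order of classes. The order for Ddc, the decarboxylase, among classes without a Neurod1 or Chga UMI was early enterocytes at 1.24, 1.68 and 0.583, enterocytes at 0.878, 0.813 and 0.324, T cells at 0.583, 0.792 and 0.685, and tuft cells at 1.23, 0.54 and 0.197 UMIs per 10000. These 4 classes overlapped across libraries, so their order was not fixed. Stem and proliferating cells followed at 0.348, 0.448 and 0.249, then goblet cells at 0.223, 0.158 and 0.0547 and B cells at 0.0975 over all libraries (0.0667 to 0.138). The EEC cluster stood above them all at 4.76, 4.29 and 2.99. After thinning, 19.4% of the cells of the EEC cluster had a Ddc UMI, against 4.76% of enterocytes, 7.56% of early enterocytes, 5.33% of T cells and 0.833% of B cells, so the Ddc of enterocytes and T cells was above the share in B cells.

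Gch1, the first enzyme of cofactor synthesis, had 0.449, 0.843 and 0.793 UMIs per 10000 in enterocytes. Dendritic cells had 0.419, 0.782 and 0.48, which overlapped the enterocyte range, from 7, 10 and 79 barcodes. Tuft cells had 0.533 (0.36 to 0.761) in the duodenum, within counting error of the enterocytes, and were below them at 0.244 and 0.197 in the other libraries. Early enterocytes were lower in each library, at 0.176, 0.134 and 0.154. Ddc and Gch1 thus stood in opposite order between the early and the mature enterocytes, with Ddc higher in the early cells of each library and Gch1 lower. Goblet cells had 0.284, 0.277 and 0.186, T cells 0.212, 0.253 and 0.235 and stem and proliferating cells 0.151, 0.193 and 0.051. In the EEC cluster the Gch1 level was 1.92, 2.35 and 1.66, above every other class in each library.

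Slc18a1, the vesicular transporter, had 3.88, 2.08 and 1.36 UMIs per 10000 in the EEC cluster. Among the other classes goblet cells led at 0.0983, 0.0923 and 0.142, above enterocytes at 0.0414, 0.0539 and 0.0296 in each library. With EE barcodes kept in their classes, goblet cells were at 0.119 over all libraries and again led. Of 735 goblet barcodes without a Neurod1 or Chga UMI, 12.8% had a Slc18a1 UMI at a median of 9932 UMIs, against 4.38% of enterocytes at 10059 and 0.25% of T cells at 4259. At 800 UMIs the shares were 1.36% (0.654 to 2.49) in goblet cells, 0.273% (0.18 to 0.397) in enterocytes and 0% (0 to 0.307) in T cells, so the goblet share stayed above the other shares at equal depth.

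The granule proteins and Tac1 were near the limit of detection outside EE barcodes. Chgb was at 119, 84 and 34.6 UMIs per 10000 in the EEC cluster and at 0.018 (0.0156 to 0.0207) in enterocytes, 0.0149 in goblet cells, 0.0438 in T cells and 0.0636 in tuft cells over all libraries. Chga was at 64.4, 15.9 and 18.4 in the EEC cluster, and its absence from the other barcodes follows from the rule. Tac1 had 36 UMIs or fewer in the EE-free barcodes of all classes, with 18 of them in 9900 enterocytes, while the EEC cluster had 2.44, 0.374 and 1.83. Reg4 was the exception. Paneth cells, with 7, 6 and 10 barcodes free of Neurod1 and Chga, had 6.43 (5.25 to 7.79), 7.44 (5.6 to 9.68) and 8.33 (7.12 to 9.68), with overlapping intervals in the 3 libraries, and 82.6% of the 23 had a Reg4 UMI. Goblet cells had 0.552, 0.489 and 0.19, and enterocytes 0.0262, 0.0136 and 0.0162. In the EEC cluster Reg4 was 123, 2.45 and 4.42, above the Paneth cells in the duodenum and below them in the jejunum and ileum.

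**Figure D1:**
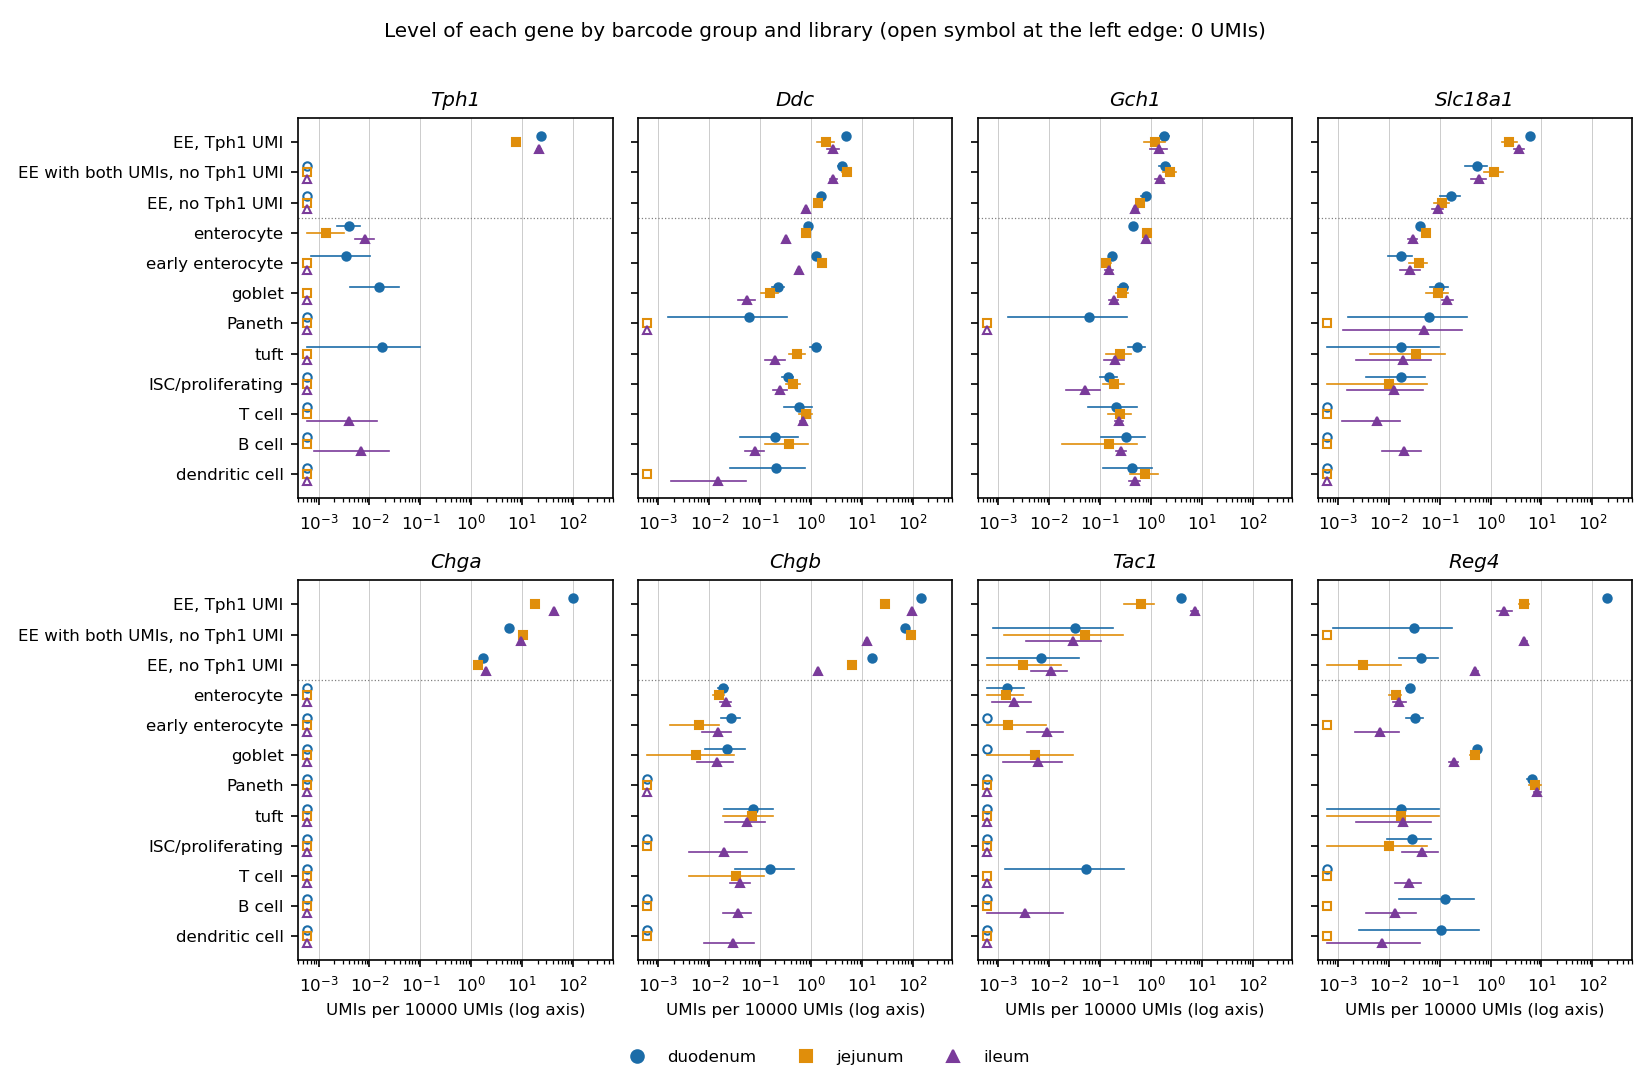
Levels of the 8 genes by class and library, in UMIs per 10000 UMIs on a log axis, with exact Poisson 95% intervals as bars and open symbols at the left edge for 0 UMIs. EE barcodes with and without a Tph1 UMI are above the dotted line and the other classes, without EE barcodes, below it. For Slc18a1 and Tac1 the barcodes with a Tph1 UMI stand above the other groups in all 3 libraries, while Ddc and Gch1 reach into enterocytes. EE barcodes without Tph1 lie near the goblet cells for Slc18a1.

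EE barcodes were compared with all other kept barcodes on the summed counts of each library, with edgeR's quasi-likelihood test and the library as a block. The p-values here and below measure the spread between 3 libraries, 1 from each segment with pooled mice, and not between animals. Where a library was left out or gave too few barcodes to a group, they measure the spread between 2 libraries. Of 14390 genes tested, 2.5% were called higher in EE barcodes. Chga was left out because it chose the barcodes, and the other 7 passed the filter on low counts, Tac1 and Tph1 through the EE barcodes, as they were near 0 elsewhere. These 2 are therefore given by their levels above and without a p. Chgb rose by 8.96 on the log2 scale (adjusted p = 0.00257) and Slc18a1 by 3.15 (adjusted p = 0.0424) in the edgeR fit. Ddc differed by 0.99 (adjusted p = 0.0617), Reg4 by 4.37 (adjusted p = 0.154) and Gch1 by 0.32 (adjusted p = 0.628), none of which passed. Without the duodenum, Ddc was called at 0.87 (adjusted p = 0.00352) and Reg4 at 2.79 (adjusted p = 2.01e-07), and Gch1 stood at -0.12 (adjusted p = 0.766).

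In the barcodes with both UMIs the same comparison, here against every barcode that lacked either, called 14.3% of 14187 genes higher. Ddc rose by 1.93 (adjusted p = 2.34e-05 in the edgeR fit) and Gch1 by 1.26 (adjusted p = 8.04e-04), and Chgb, Reg4 and Slc18a1 were called as well. Ddc had 4.94, 4.26 and 2.84 UMIs per 10000 in the barcodes with both UMIs, against 0.871, 0.871 and 0.355 in barcodes with neither UMI. The groups did not overlap.

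The next comparison sets EE barcodes with a Tph1 UMI against those without, and asks which of the other genes go with Tph1. Its barcodes are also the EE side of the comparison above. Tph1 chose the groups and Chga and Neurod1 chose the barcodes, so those 3 have no test. Depth, the mitochondrial share and neighbouring markers moved with the split. The median was 15043, 4849 and 3469 UMIs with a Tph1 UMI and 14474, 14629.5 and 7974 without. A list of 14 enterocyte genes had a summed level of 178, 973 and 208 UMIs per 10000 with Tph1 and 468, 720 and 600 without, and 10 goblet genes had 69.7, 13.1 and 372 against 16.6, 7.11 and 80.9. In barcodes with both UMIs the enterocyte list was 166, 711 and 242 against 77.4, 50.7 and 141. Their median depth was 15043, 3970.5 and 3179 UMIs with Tph1 and 19694, 19677.5 and 6408 without. The median mitochondrial share by the wide rule was 7.8%, 17.8% and 13.1% with Tph1 and 22.8%, 26.3% and 12.6% without. With both UMIs it was 7.8%, 17.5% and 12.8% against 4.85%, 5.07% and 6.43%. The part of depth, mitochondrial share and these markers in the differences below was not tested.

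Slc18a1 was apart between the groups in every library. Its level was 5.86 (5.2 to 6.57), 2.35 (1.65 to 3.23) and 3.66 (2.86 to 4.61) UMIs per 10000 with a Tph1 UMI and 0.164 (0.104 to 0.246), 0.113 (0.079 to 0.156) and 0.0916 (0.0696 to 0.118) without, and every library with Tph1 was above every library without. The ratios within a library were 35.8, 20.8 and 39.9. A Slc18a1 UMI was found in 78.9% of the 76 barcodes and in 8.47% of the 803, and in 35.5% and 0.747% at 800 UMIs, against 0% of T cells. Slc18a1 rose by 4.70 on the log2 scale (SE 0.328, adjusted p = 2.42e-07 in the edgeR fit), where 6.33% of 8594 genes were called higher and 3.99% lower. With both UMIs the levels were 6.98, 3.68 and 4.31 against 0.542, 1.19 and 0.591, still with no overlap, and the rise was 2.58 (adjusted p = 0.00812), where 1.31% of 4739 genes were called higher. Slc18a1 was called in all 15 of its other fits.

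**Figure D2:**
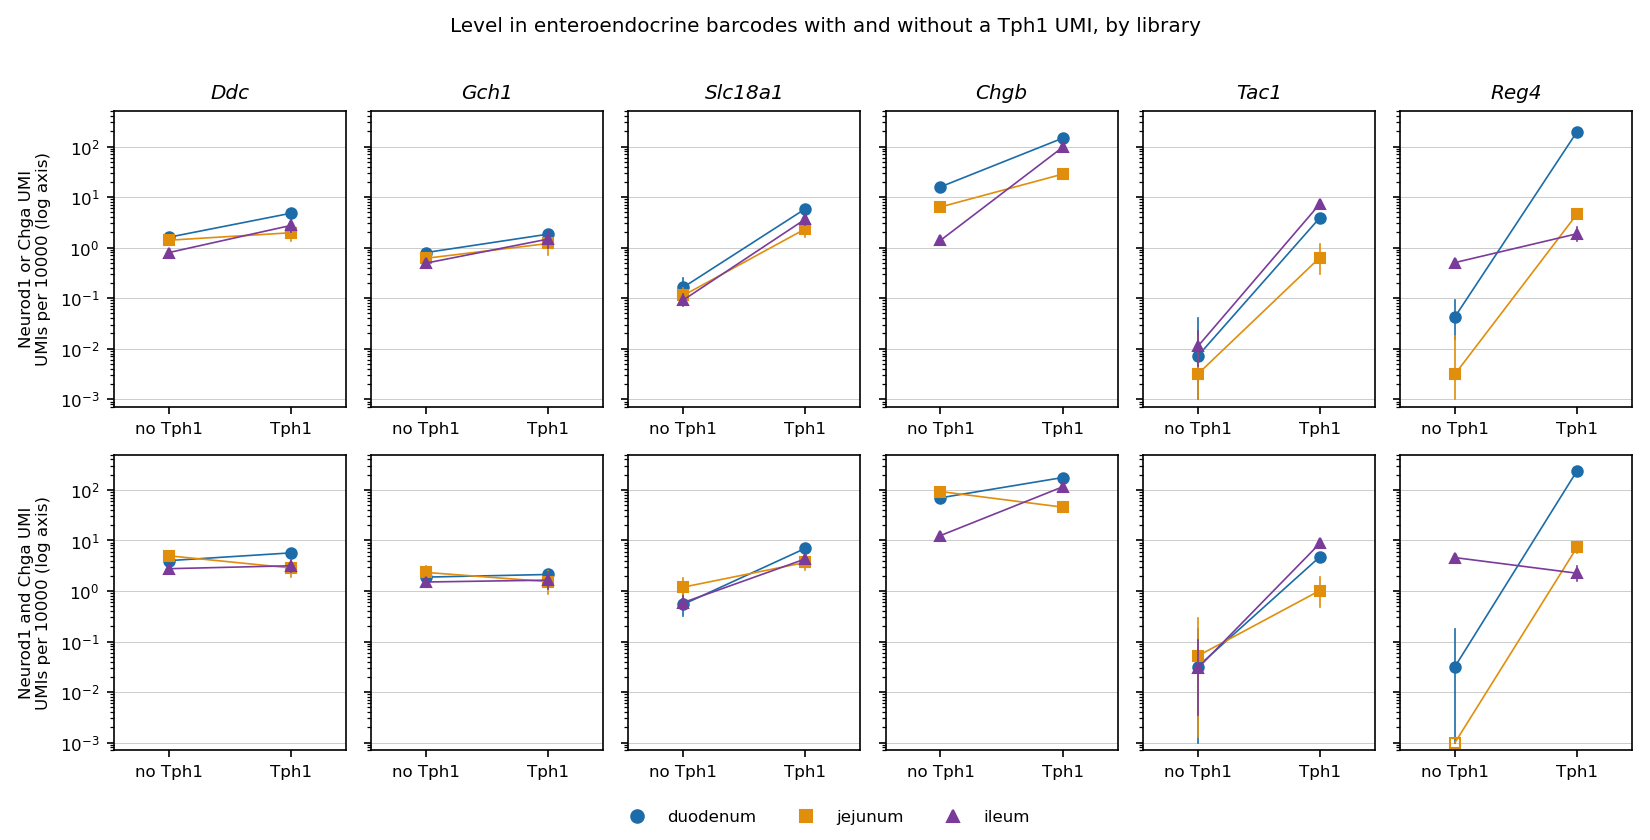
Levels of 6 genes in barcodes with and without a Tph1 UMI in each library, in UMIs per 10000 UMIs on a log axis with exact Poisson 95% intervals, for EE barcodes by the Neurod1-or-Chga rule in the upper panels and for barcodes with both UMIs in the lower ones, and open symbols mark 0 UMIs. Slc18a1 and Tac1 are apart in every library in both, whereas Ddc and Gch1 draw together in the lower panels.

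Ddc and Gch1, the enzymes of synthesis beside Tph1, behaved differently. Ddc had 4.78 (4.19 to 5.43), 1.97 (1.34 to 2.79) and 2.74 (2.06 to 3.58) UMIs per 10000 with a Tph1 UMI and 1.60 (1.40 to 1.82), 1.40 (1.27 to 1.53) and 0.796 (0.728 to 0.869) without. The jejunum's ratio of 1.41 had an interval of 0.944 to 2.03. Gch1 had 1.84, 1.21 and 1.47 with and 0.797, 0.614 and 0.493 without, so for both genes each library with Tph1 was above each without. Ddc rose by 1.04 on the log2 scale (SE 0.312, adjusted p = 0.0451) and Gch1 by 0.99 (SE 0.277, adjusted p = 0.0341) in the same edgeR fit. Both calls were lost without the duodenum (adjusted p = 0.210 for Ddc and 0.0979 for Gch1) and without the ileum (0.320 and 0.213), and that of Gch1 without the jejunum (0.0517). With both UMIs no difference was called. Ddc had 5.68 (4.97 to 6.46), 2.86 (1.9 to 4.13) and 3.16 (2.36 to 4.14) with Tph1 and 3.99 (3.32 to 4.75), 4.97 (4.03 to 6.07) and 2.76 (2.38 to 3.19) without, higher with Tph1 for the duodenum, lower for the jejunum and within counting error for the ileum. Its log2 difference was -0.17 (adjusted p = 0.850 in the edgeR fit) and that of Gch1 was -0.25 (adjusted p = 0.760). The barcodes without Tph1 outside the EEC cluster had 0.787, 1.13 and 0.559 for Ddc and 0.484, 0.474 and 0.369 for Gch1, beside 0.878, 0.813 and 0.324 and 0.449, 0.843 and 0.793 in enterocytes.

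Chgb, the granule protein, had 146 (143 to 149), 28.4 (25.8 to 31.2) and 96.4 (92.1 to 101) UMIs per 10000 with a Tph1 UMI and 15.9, 6.37 and 1.39 without. The groups did not overlap, but 1 jejunal barcode gave 364 of the 448 Chgb UMIs and the jejunum stood at 6.15 without it. Chgb rose by 3.46 (SE 0.708, adjusted p = 0.00565 in the edgeR fit), and without the ileum by 2.48 (adjusted p = 0.130), which was not called. With both UMIs the levels were 176, 45.6 and 115 against 69.9, 92.9 and 12.5, the groups overlapped, and the difference of 1.01 did not pass (adjusted p = 0.611). Chga, described without a test, had 121, 27.8 and 50.1 with Tph1 and both UMIs and 5.55, 10.4 and 9.58 without Tph1, with no overlap.

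Tac1, the substance P precursor, had 3.89 (3.36 to 4.48), 0.634 (0.304 to 1.17) and 7.31 (6.17 to 8.61) UMIs per 10000 with a Tph1 UMI. Without it the 803 barcodes held 1, 1 and 7 Tac1 UMIs, or 0.00712, 0.00313 and 0.0111 per 10000. Of the 76 barcodes 27 (35.5%) had a Tac1 UMI, or 12, 3 and 12 by library, so most barcodes with Tph1 had none. Single barcodes held much of the sum, with 155 of 192 UMIs in the duodenum and 99 of 144 in the ileum, and without them the levels were 0.781 and 2.61. With both UMIs the levels were 4.74, 1.02 and 8.74 with Tph1, against 1, 1 and 2 UMIs without. The filter on low counts kept Tac1 through the barcodes with Tph1, so its fitted difference is a description and no p is given.

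Reg4 differed most between the libraries. With a Tph1 UMI it had 197 (193 to 201), 4.63 (3.63 to 5.82) and 1.88 (1.32 to 2.59) UMIs per 10000, and without one 0.0427, 0.00313 and 0.506. The duodenal value came from many barcodes. A Reg4 UMI was in 24 of the 36, 12 of them were above 100 per 10000, the highest had 919, and leaving out the barcode with most UMIs left 167. In the jejunum and ileum 6 of 13 and 6 of 27 had a Reg4 UMI. The fitted log2 difference of Reg4 was 8.12 (SE 1.83), and 6.30 without the jejunum, which was not called. Without Tph1 the duodenum and jejunum held 6 and 1 Reg4 UMIs. The filter on low counts thus kept Reg4 through the barcodes with Tph1, so its fitted difference is a description and no p is given. With both UMIs the duodenum had 239 against 0.0319 and the jejunum 7.35 against 0 UMIs, but the ileum had 2.25 against 4.58. The difference of 6.82 was not called. Of the 310 Reg4 UMIs in ileal barcodes with both UMIs and no Tph1, 250 were in 23 barcodes led by the hormone Sct, 40 in 4 led by Gcg, 19 in 2 led by Pyy and 1 in the 30 led by Nts. A single barcode held 126 of the 310, and the level was 2.79 without it.

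**Figure D3:**
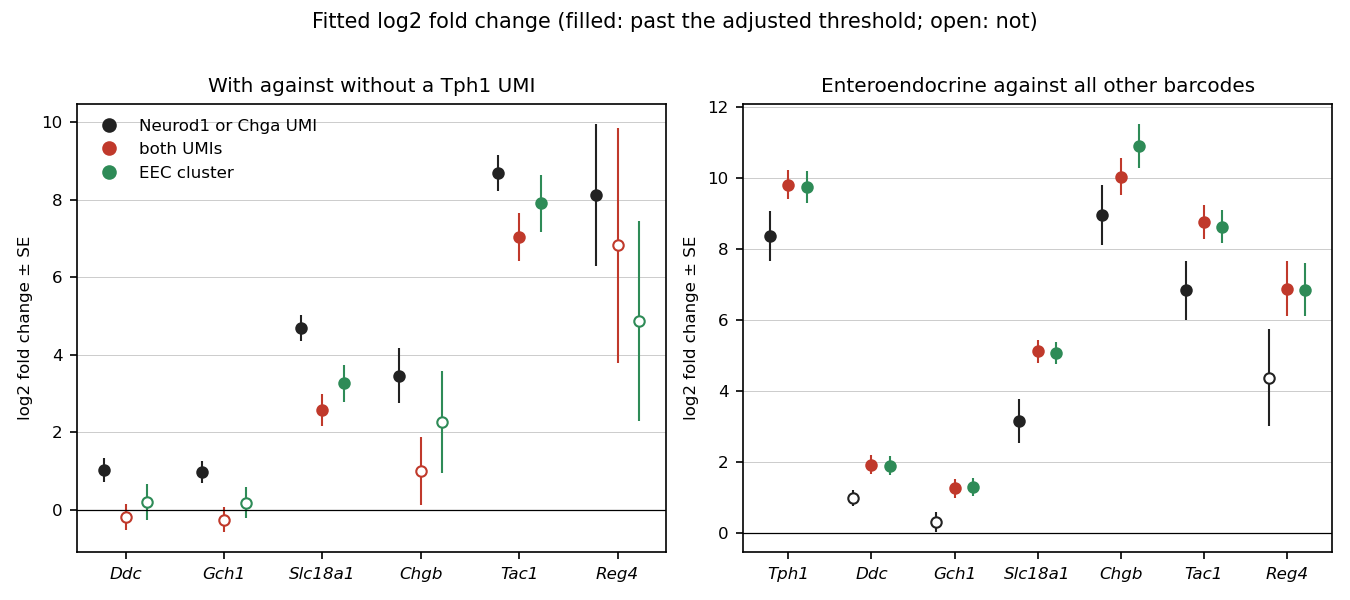
Fitted log2 differences with their SE, for EE barcodes with against without a Tph1 UMI on the left and for EE against all other barcodes on the right, under 3 definitions of EE barcodes, where filled symbols passed the adjusted threshold and open ones did not. On the left Slc18a1 is filled under all 3 definitions, and Ddc and Gch1 lie near 0 under the stricter ones. The EEC cluster fit on the left used the duodenum and ileum only. Tac1 is filled under all 3 too, but Tac1 and Reg4 were kept by the filter through the barcodes with Tph1.

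The same fits hold the genes around the members. Of the 7 tested genes of cofactor synthesis and recycling other than Gch1, 0 were called by edgeR or DESeq2 with the Tph1 UMI (2 and 1 at an unadjusted p under 0.05, all lower), and their median log2 difference was -0.178 beside -0.0615 over all genes. With both UMIs 0 of 6 were called by edgeR (1 lower at an unadjusted p under 0.05), with a median of -0.155 beside 0.0145. Qdpr, which recycles the cofactor, had 2.86, 1.01 and 1.12 UMIs per 10000 with Tph1 and 0.669, 0.699 and 0.978 without (log2 difference 0.75, adjusted p = 0.21). Of 4 tested genes of serotonin transport and breakdown, Maoa, the monoamine oxidase, fell by 1.26 on the log2 scale (adjusted p = 0.0255), from 1.59, 4.99 and 3.86 to 0.588, 3.55 and 1.78, lower in each library although the groups overlapped across libraries. With both UMIs the direction of Maoa turned, to 2.17 higher with Tph1 (adjusted p = 0.166), and 0 of 3 genes of this list were called by edgeR (2 higher at an unadjusted p under 0.05), with a median of 2.17. Slc6a4, the serotonin reuptake transporter, had 0.203, 0.19 and 0.152 with Tph1 and 0.178, 0.335 and 0.245 without, and was not called. Slc18a2, the other vesicular monoamine transporter, had 17, 0 and 1 UMIs with Tph1, and Tph2, the tryptophan hydroxylase of neurons, had 0 UMIs throughout. Of 5 genes of amino acid uptake tested, 0 were called by edgeR or DESeq2, with 4 lower at an unadjusted p under 0.05 in each and a median of -0.917. With both UMIs 0 of 4 were called by edgeR and 0 had an unadjusted p under 0.05, with a median of 0.125.

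Granule and exocytosis genes were higher with Tph1 by the wide rule and mostly not called higher among barcodes with both UMIs. By the wide rule 9 of 14 granule genes, 8 of 11 exocytosis genes and 9 of 9 tested excitability genes were called higher by edgeR, with medians of 1.32, 1.87 and 4.19. Over all 8594 genes 6.33% were called higher. The filter on low counts left 11 of 16 listed exocytosis genes and 9 of 16 listed excitability genes. A gene can pass it through the barcodes with Tph1 alone, so these counts are descriptions. DESeq2 called 6, 5 and 8 of these genes higher, and 396 of the 8594. With both UMIs 0 of 13 granule genes were higher by edgeR (1 at an unadjusted p under 0.05) and 3 were lower, Cpe, Scg2 and Scgn, with a median of -1.04 beside 0.0145 over all genes. Of all 4739 genes 62 were called higher and 60 lower there. Snap25, a SNARE protein of vesicle fusion, was the only exocytosis gene of 9 that rose, by 1.80 (adjusted p = 0.035), from 1.05, 1.86 and 1.11 UMIs per 10000 without Tph1 to 5.75, 3.47 and 6.01 with it, both among barcodes with both UMIs. The sodium channel gene Scn3a rose by 2.77 (adjusted p = 0.0159) and the calcium-permeable channel gene Trpm2 by 3.58 (adjusted p = 0.0019), 2 of 8 excitability genes in the edgeR fit. Trpa1, the irritant receptor, had 4.03, 0.444 and 0 UMIs per 10000 with Tph1, none of it in the ileum. Piezo2 had 0 UMIs in all 3 libraries.

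Of 15 tested transcription factors of EECs 6 were called higher with Tph1 and 1 lower, and of 9 hormone genes of other EEC types 0 were higher and 5 lower, all by the wide rule, with medians of 1.06 and -3.51. Over all genes 6.33% were called higher and 3.99% lower by this rule. The filter on low counts kept some called genes through a single group, Lmx1a with Tph1 and Gip and Sst without it. The counts of calls in this paragraph are therefore descriptions. The balance of the factors turned with both UMIs, where 2 of 15 were higher and 5 lower with a median of -1.42, beside 62 higher and 60 lower of all 4739 genes. It also turned in the EEC cluster, where 3 were higher and 7 lower with a median of -0.72, beside 144 higher and 92 lower of all 5786 genes. That fit used the duodenum and ileum only. Of the hormones 0 of 9 were higher by edgeR with both UMIs (0 at an unadjusted p under 0.05) and 4 were lower. Lmx1a, a factor of enterochromaffin cells, had 78, 11 and 16 UMIs with Tph1 and 0 without under the wide rule, and Isl1, a factor of peptide-hormone cells, had 0.304, 0.19 and 0.406 UMIs per 10000 with Tph1 and 1.68, 0.398 and 0.51 without. The hormones that were lower included Gip at 0.142, 0.127 and 0 against 307, 71.1 and 5.79, and Sst at 0.0405, 0 and 0.0508 against 172, 23.9 and 0.149. Nts, not called, was at 13.6, 134 and 134 against 17.4, 23.9 and 65.4, and with both UMIs its direction turned, to 16.5, 215 and 153 against 77.9, 391.8 and 601. In the duodenum Cck (249 against 93.2), Sct (292 against 73.6) and Gcg (52.3 against 0.256) were higher with Tph1, and none of the 3 was called over the libraries. With both UMIs the duodenal values were 191 against 416 for Cck, 303 against 327 for Sct and 63.7 against 1.08 for Gcg. The 5 called genes with the largest fitted rises were Lmx1a, Slc38a11, Npy1r, Tac1 and Cwh43, and those with the largest falls Sst, Gip, Ifitm3, Nnat and Clca3b. Lmx1a, Slc38a11 and Tac1 had few or no UMIs without Tph1, so the size of their fitted rise depends on the prior count and gives no order. The same holds for the falls of Sst and Gip, which had 3 and 9 UMIs in the barcodes with Tph1. In EE against other barcodes they were Slc38a11, 4930556N09Rik, Ambp, 4933407L21Rik and Stxbp5l, and Mptx1, Mef2b, Pf4, Lair1 and Ighg2b. Slc38a11, an amino acid transporter gene, had 3.1, 2.22 and 1.32 UMIs per 10000 with Tph1 and 0, 0 and 0.00158 without.

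Barcodes without Tph1 were not uniform in the members. When barcodes with both UMIs and no Tph1 were sorted by their leading hormone, Ddc was 6.04, 9.21 and 8.19 UMIs per 10000 in those led by Gip (7, 4 and 5 barcodes), against 5.68, 2.86 and 3.16 in barcodes with both UMIs and Tph1. It was 0.507 in the 30 ileal barcodes led by Nts and 1.16 and 1.46 in those led by Sst (5 in the duodenum and 2 in the jejunum). Chgb followed another order, with 219 in 2 duodenal barcodes led by Cck and 293 in 1 of the jejunum, 40.3, 105 and 60.6 in those led by Gip, and 2.58 in the ileal ones led by Nts. The hormones are markers of the barcodes and the groups are small, so these are descriptions.

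Within the 76 barcodes with Tph1, detection of the machinery was partial. Ddc, Slc18a1, Chga and Chgb were all detected in 37 of the 76 (48.7%), or 23 of 36, 5 of 13 and 9 of 27 by library, and 2 barcodes had none of the 4. Without Tph1, 21 of 803 (2.62%) had all 4, and these 21 were all among the 93 with both UMIs, 6 of 17, 7 of 12 and 8 of 64. At 800 UMIs a Chgb UMI was in 77.6% of the 76, a Slc18a1 UMI in 35.5%, Reg4 in 31.6%, Ddc and Gch1 in 15.8% each and Tac1 in 10.5%. At full depth Ddc was seen in 60.5% and Gch1 in 51.3%, so a barcode without a UMI of either is not shown to lack it.

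**Figure D4:**
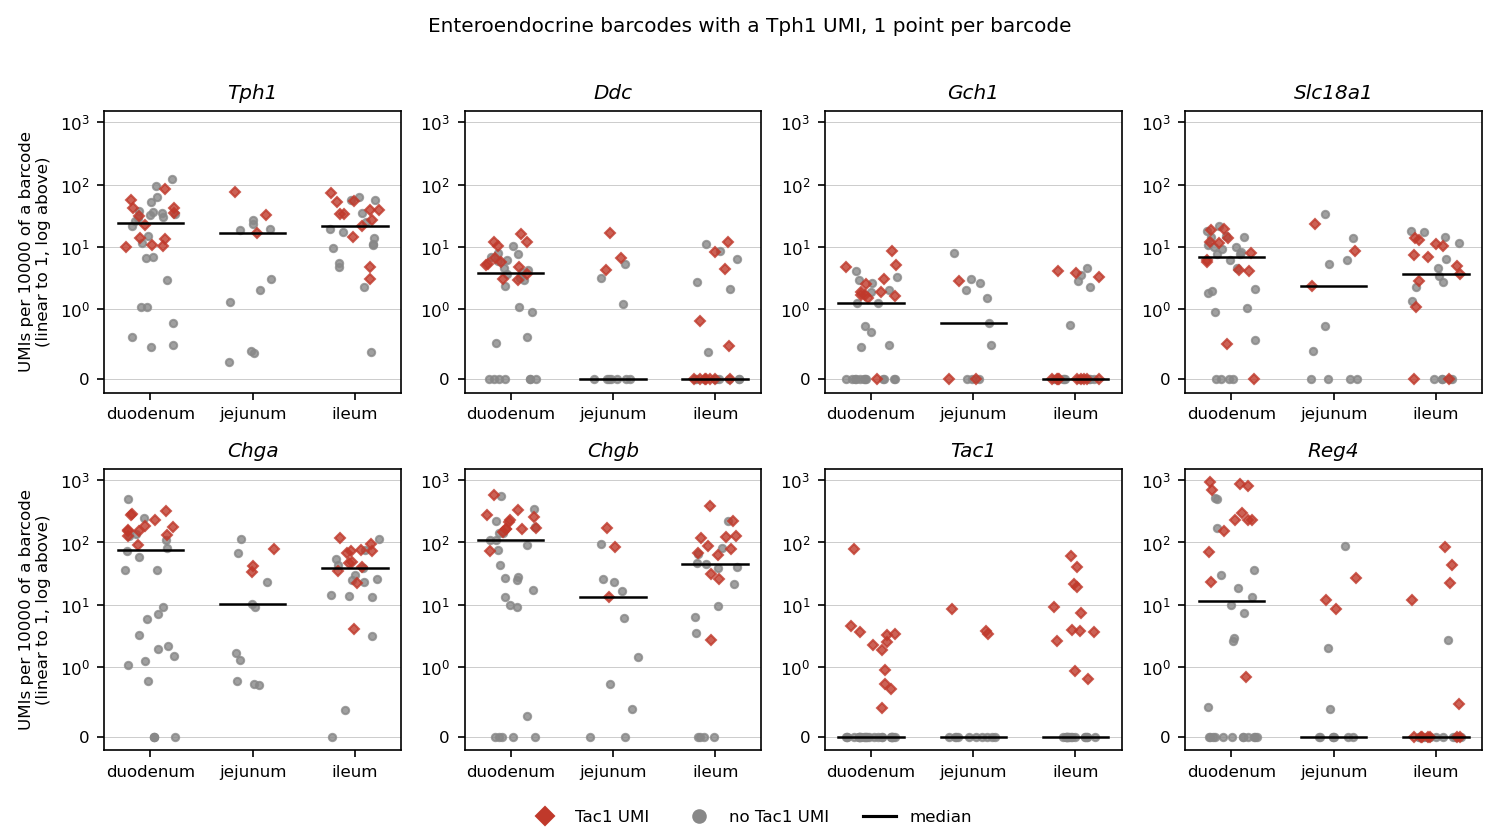
UMIs per 10000 UMIs of the 8 genes in each EE barcode with a Tph1 UMI, by library, on an axis that is linear near 0 and logarithmic above, with the median as a black line, where red diamonds are barcodes with a Tac1 UMI and grey points those without. Reg4 reaches 919 in the duodenum, and the highest Chgb value of each library is in a barcode with Tac1.

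Correlations over barcodes were taken on ln(1 + UMIs per 10000) within each library and averaged over the 3, as a description, since the barcodes of a library share its depth and its pooled mice. Among the 76, Chga and Chgb had the highest r at 0.86 (0.86, 0.95 and 0.78), then Tph1 with Chga at 0.68, Tph1 with Chgb at 0.65 and Slc18a1 with Chga at 0.63. Tph1 and Slc18a1 had 0.57 (0.63, 0.65 and 0.44). Tac1 and Reg4 had 0.55 and were alike in the 3 libraries (0.54, 0.56 and 0.54) despite their different levels. Tph1 had 0.20 with Ddc and 0.18 with Gch1, and Gch1 with Reg4 was lowest at -0.09. Over the 157 barcodes with both UMIs, Tph1 with Slc18a1 was 0.69 and Tph1 with Ddc 0.01, while Ddc had 0.43 with Chgb and 0.30 with Gch1.

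**Figure D5:**
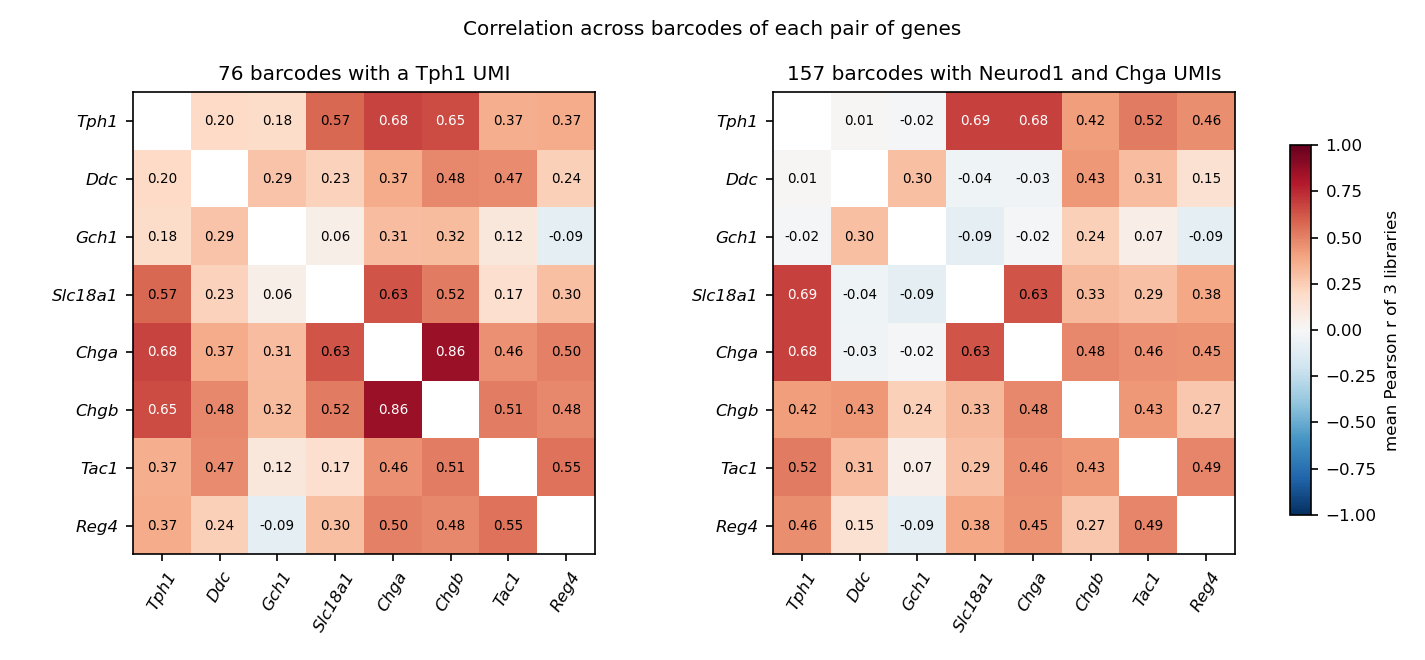
Mean over the 3 libraries of Pearson's r of ln(1 + UMIs per 10000) between the 8 genes, over the 76 EE barcodes with a Tph1 UMI and over the 157 barcodes with UMIs of both Neurod1 and Chga. Chga with Chgb is highest at 0.86 among the 76, and Tph1 with Ddc falls to 0.01 among the 157.

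Of 7581 genes over all 879 EE barcodes, the pattern most like that of Tph1 was that of Slc18a1 (mean r 0.77, with 0.85, 0.72 and 0.73), then Snap25 (0.76), Scn3a (0.72), the keratin Krt7 (0.69), Chga (0.69), Fry (0.66), Chgb (0.65), Auts2 (0.62), Neurod1 (0.59) and Cacna1a (0.59). Chga and Neurod1 also chose these barcodes, so their place is no finding. Ddc was at rank 281 (0.24) and Gch1 at rank 548 (0.17). Over the 157 barcodes and 8630 genes Slc38a11 (0.73), Trpm2 (0.72), Stxbp5l (0.69) and Slc18a1 (0.69) came first, then Chga (0.68), Krt19 (0.66), Snap25 (0.65), Krt7 (0.64), Lmx1a (0.63) and Scn3a (0.63). Tac1 had rank 23 (0.52), Reg4 rank 43 (0.46, with 0.11 in the ileum), Chgb rank 56 (0.42), Ddc rank 2582 (0.01) and Gch1 rank 3216 (-0.02).

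The last comparison was between the 27 barcodes with Tph1 that had a Tac1 UMI and the 49 that had none. Reg4 had 418 (409 to 427), 13.5 (9.37 to 18.9) and 3.28 (2.3 to 4.54) UMIs per 10000 with Tac1 and 59.5 (56.8 to 62.3), 2.94 (2.09 to 4.02) and 0.115 (0.00291 to 0.639) without, higher with Tac1 in each library although the groups overlapped across libraries. Both UMIs were in 20 of the 76 barcodes, Reg4 alone in 16, Tac1 alone in 7 and neither in 33, and the 7 with Tac1 alone were all from the ileum. The fit used the duodenum and ileum, since the jejunum had 3 barcodes with Tac1. Reg4 rose by 3.11 (SE 0.503, adjusted p = 0.0110 in the edgeR fit), where 0.254% of 2751 genes were called higher and 0.254% lower, and was called in 7 of its 11 other fits. With the 3 jejunal barcodes included the rise was 2.78 (adjusted p = 0.398), and with both UMIs 2.62 (adjusted p = 0.147), neither of which passed. Median depth was 15866, 2954 and 2708 UMIs with Tac1 and 14719, 6259.5 and 3628 without, and the goblet and enterocyte lists had no common direction over the 3 libraries (54.8, 62.9 and 325 against 78.9, 3.70 and 430, and 167, 276 and 333 against 184, 1105 and 50.8).

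The other members were higher with Tac1 in each library by summed level, and of the 4 tested 0 were called by edgeR at the adjusted threshold. The EEC cluster held 12, 3 and 11 of the 12, 3 and 12 barcodes with Tac1. It held 20, 6 and 11 of the 24, 10 and 15 without, and those outside it gave 101131 of the 132538 jejunal UMIs without Tac1. Single barcodes with Tac1 held 364 of the 378 jejunal and 941 of the 1531 ileal Chgb UMIs, and 29 of the 40 ileal Ddc UMIs. Tph1 itself, which had chosen these barcodes, had 32.7, 33.0 and 24.2 UMIs per 10000 with Tac1 and 18.2, 2.87 and 18.2 without. Chgb had 242, 150 and 140 against 86.9, 5.28 and 42.1 (2.83-fold in the edgeR fit, adjusted p = 0.147). Ddc had 6.89, 5.17 and 3.65 against 3.48, 1.36 and 1.61 (log2 difference 0.96, adjusted p = 0.836), and Gch1 3.07, 2.39 and 1.73 against 1.08, 0.981 and 1.15 (1.03, adjusted p = 0.852). Slc18a1 had the smallest fitted difference of the 4, at 7.58, 5.17 and 3.92 against 4.79, 1.81 and 3.33 (0.37, adjusted p = 0.999 in the edgeR fit). With both UMIs its direction turned (-0.14). Of the other genes Nts, neurotensin, had 0.053, 0 and 0.456 with Tac1 and 22, 159 and 302 without. The granule protein Scg2 had 0.371, 0 and 0 against 18.4, 0.981 and 1.84. The filter on low counts kept Nts and Scg2 through the barcodes without Tac1, so no p is given for them. Sct, secretin, fell by 2.26 (adjusted p = 0.013 in the edgeR fit of the duodenum and ileum). Its levels were 88.2, 43 and 27 with Tac1 and 418, 38.4 and 113 without, so Sct was not lower in the jejunum. Nts, Scg2 and Sct were also lower with both UMIs in the duodenum and ileum (adjusted p = 0.032 for Sct in the edgeR fit). Trpa1 had 9.22, 1.19 and 0 UMIs per 10000 against 0.82, 0.302 and 0. Its call (3.36, adjusted p = 0.044) rested on the duodenum alone, as the ileum had 0 in both groups, and was lost with DESeq2 (adjusted p = 1.00) and with both UMIs (adjusted p = 0.289). By size the 5 rises were Nupr1, Afp, Vim, Reg4 and Gstt1, and the 5 falls Nts, Scg2, Ccl5, Defa30 and Agr2, among them the T cell gene Ccl5, the Paneth gene Defa30 and the goblet gene Agr2.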

How the data were processed

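Gene counts (UMIs per gene and barcode) were deposited by the authors as filtered matrices made with Cell Ranger 3.0.2, per the labels' processing notes. Of all barcodes, those with 800 to 50000 UMIs, with 200 to 6000 genes and with no more than 40% of UMIs from mitochondrial genes were kept, which left 4255, 4360 and 8071 of 9501, 8139 and 9595 in the duodenum, jejunum and ileum. Classes came from Seurat 5.3.0 integration and clustering without the 8 genes, named from fixed marker lists, with part of the naming and subclustering rules set after the clusters were seen. Scrublet called 0, 2 and 171 doublets, which in the duodenum and jejunum is too few to have worked, and none was removed.

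Counts were summed per library and group (at least 10 barcodes) and tested with edgeR 4.0.16 (quasi-likelihood, TMM, filterByExpr, library as a block because both sums come from 1 library, Benjamini-Hochberg, threshold 0.05), in R 4.3.3, with DESeq2 1.42.0 as an alternative. Levels, shares and correlations used Python 3.11.15. On simulated counts the Tph1 and EE comparisons recovered 17% and 23% of genes changed by 1 and 100% and 96% of those changed by 3 on the log2 scale, among 8594 and 14390 genes, and the Tac1 comparison 7% and 100% among 2751. Genes named are the 8, those of the lists, the 5 largest called rises and falls with 1 direction in every library, and the 10 with the highest mean r with Tph1. The members and lists were chosen with earlier results of these data known. Protein sequences were not used here.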

Additional observations from a re-analysis of the deposited data

Results flagged for a closer look

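Among barcodes with UMIs of both Neurod1 and Chga, the ratio of the level with a Tph1 UMI to that without went in opposite directions in different libraries, with intervals that left out 1 on each side, for 3 genes, and the difference between libraries was not tested. For Ddc it was 1.42 in the duodenum (1.14 to 1.78) and 0.575 in the jejunum (0.363 to 0.884). For Chgb it was 2.51 in the duodenum, 9.18 in the ileum and 0.491 in the jejunum. In the EEC cluster the jejunal Chgb ratio was 0.913 (0.822 to 1.01), an interval that held 1. Among jejunal barcodes with Tph1 and both UMIs, 1 outside the cluster held 41411 of the 97946 UMIs of all genes. In the group without Tph1 a single barcode gave 41.5% of the jejunal Chgb UMIs and the level was 62.5 without it, against 45.6 with Tph1. For Reg4 it was 7500 in the duodenum (from 1 UMI without Tph1), at least 47.3 in the jejunum, where the group without Tph1 had 0 UMIs and stands at a floor of 3, and 0.491 in the ileum. Each group with both UMIs is 1 library of 10 to 64 barcodes.

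Outside the filters, among 10549 barcodes of which 10109 were over the mitochondrial limit, 9 barcodes had a Tph1 UMI beside a Neurod1 or Chga UMI, namely 4 duodenal, 1 jejunal and 4 ileal ones. They held 70 Tph1, 1065 Chgb and 123 Tac1 UMIs, and 6 of the 9 were over the mitochondrial limit.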

How the results depend on the processing

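Counts of called genes moved with most settings. For the Tph1 split, with 887 calls (544 higher), there were 1362 without a filter, 520 with DESeq2, 122 with both UMIs, 209 with a Neurod1 UMI, 236 in the EEC cluster, 21 after thinning and 1517 with at least 2 Tph1 UMIs. The last 3 of these fits lacked the jejunum, which had 9, 6 and 8 barcodes with Tph1 there. Leaving out a library gave 432 (without the ileum) to 875, with 577 without the duodenum. For EE against other barcodes, with 536 calls, there were 325 under library totals, 1226 without a filter, 1123 with DESeq2, 5044 with both UMIs, 3940 with a Neurod1 UMI and 5476 in the EEC cluster, and 552 to 1651 with a library left out (908 without the ileum, 1651 without the duodenum). For the Tac1 split, with 14 calls, there were 26 with DESeq2 size factors, 7 under library totals, 76 without a filter, 6 with DESeq2, 1 with sums of at least 3 barcodes, 6 with both UMIs and 34 with a Neurod1 UMI. Without the replicate block, that is the pairing of both sums of a library, the 3 counts were 173, 124 and 0 by edgeR, the last with 54 genes at an unadjusted p under 0.05. The causes were not tested.

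The direction turned for Ddc (-0.17) and Gch1 (-0.25) in the Tph1 split with both UMIs, for Gch1 in EE against other barcodes with a library left out (-0.12 without the duodenum, up to 0.56 without the jejunum), and for Slc18a1 in the Tac1 split with both UMIs (-0.14). Slc18a1 in EE against other barcodes was not called under library totals (3.30, adjusted p = 0.0731 by edgeR), without the block, or at 20% mitochondrial UMIs. Under library totals the share of calls that were higher went from 61.3% to 85.2% in the Tph1 split and from 67.2% to 78.5% in EE against other barcodes, and the median of all genes moved to 0.228 and 0.124. At most 20% mitochondrial UMIs moved the EEC cluster to 8.2 for Tph1, 81.4 for Chgb and 58.8 for Reg4, and enterocytes to 0.607 for Ddc and 0.833 for Gch1, and clustering without integration gave 0.727 and 0.707. Of the single-gene alternatives 195 kept their call, 36 lost one, 18 gained one and 4 turned.

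Depth, barcode number and the definition of EE barcodes limit these results. The jejunum had 13 EE barcodes with Tph1, single barcodes held much of Tac1, Chgb and Reg4, and there is 1 library a segment. The Tac1 split could not be run without the duodenum or ileum, at 20% mitochondrial UMIs or after thinning.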
